A study of Mus musculus with 27 samples.

Results

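Conjugating enzymes of phase II drug metabolism were followed in the intestine of irradiated mice. They comprise the glutathione transferases (Gst and the microsomal Mgst genes), the UDP-glucuronosyltransferases (Ugt) and the sulfotransferases (Sult). Members were taken by gene symbol and by a protein-coding transcript in the deposited table, with no use of measured values. Of 55401 genes in the table, 67 qualified, and 38 of them were measured, meaning an FPKM (fragments per kilobase of gene per 1 M mapped fragments) of at least 1 in at least 3 of 27 libraries. Of the 38, 27 reached 1 FPKM in every library and 11 fell below it in some. Another 7 symbols matched the pattern but had no protein-coding transcript.

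RNA came from the intestine of wildtype male C57BL/6 mice aged 6 to 8 weeks, with 3 libraries in each of 9 groups. The control group received no radiation and no CBLB502 (PBS according to the design text). Mice received 60Co gamma rays at 72 R/min. The irradiated groups without CBLB502 were 6 Gy sampled at 6 h, 6 Gy at 24 h, 15 Gy at 6 h, 15 Gy at 24 h and 15 Gy at 3 d. CBLB502, a flagellin-derived agonist of Toll-like receptor 5, was injected at 0.2 mg/kg alone, with 6 Gy or with 15 Gy, in the last case 0.5 h before the rays, with sampling at 24 h. In the design text there are 7 groups of 10 mice, and in the labels 9 groups. The labels do not say that the libraries of a group came from separate mice, so p-values measure only the spread between these libraries, which may be technical.

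Phase II enzymes attach a water-soluble group to drugs, toxins, hormones and the products of oxidation, after which exporters carry the conjugate out of the cell. Cytosolic and microsomal glutathione transferases use glutathione, UDP-glucuronosyltransferases use UDP-glucuronic acid, and sulfotransferases use the sulfate donor PAPS. Enterocytes, the absorptive cells of the gut lining, hold much of this capacity in the intestine, where it acts on swallowed compounds before they reach the liver. Many of these genes are known targets of the xenobiotic receptors PXR and CAR and of the stress regulator Nrf2.

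Libraries held 57.4 to 87.1 M counts, of which mitochondrial genes took 4.59 to 28.7%. Levels of a gene across libraries are given as CPM, counts per 1 M after TMM scaling. Changes are log2 fold changes ± SE from edgeR's quasi-likelihood test. A gene was called where its Benjamini-Hochberg adjusted p over the 11118 genes tested was under 0.05, and rose and fell are used of called genes. Replicates were not evenly placed for these genes. Control replicate 3 was the highest control library for 32 of 38 members, 15 Gy 24 h replicate 2 the highest of its group for 34, and CBLB502 replicate 3 the lowest of its group for 31. The clock-controlled transcription factor Dbp, on which light and feeding time act, stood at 85.5 to 94.3 CPM in control. It stood at 1.27 to 6.17 CPM at 6 Gy 6 h, 31.7 to 94.6 CPM at 15 Gy 6 h and 0.728 to 4.20 CPM at 15 Gy 3 d. All groups sampled at 24 h lay below control too. Dbp held 18.9 to 32.6 CPM at 6 Gy, 0.48, 24.4 and 18.1 CPM at 15 Gy and 29.0 to 47.3 CPM with CBLB502 alone. With CBLB502 it held 25.8 to 46.6 CPM at 6 Gy and 0.66 to 9.5 CPM at 15 Gy.

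The families differed in how much of them the intestine expressed. All 7 Gstm, all 4 Gsta, all 3 Gstp and all 3 Mgst genes were measured. Only 5 of 9 Ugt1a, 5 of 7 Ugt2b, 1 of 3 Ugt2a and 0 of 2 Ugt3a genes were. Sulfotransferases were the least represented, with 2 of 6 Sult1 genes, 1 of 9 Sult2 genes and 1 of 6 others. The Sult2a genes, which sulfate bile acids and steroids, had no count in 7 of 8 cases, and Sult2a8 had 16 counts in all. In total 13 members had no count, which allows up to 0.00146 CPM over all libraries (3 counts, counting error only). Per length, the highest means over the 27 libraries were those of Mgst3 (217.8 FPKM), Gsto1 (217.5), Gsta1 (165.6), Sult1b1 (162) and Gstm3 (159). Ugt2b34 (151 FPKM), Sult6b2 (142) and Ugt1a1 (140) followed, and Gsta3 was lowest at 0.868 FPKM.

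Replicates lay closer for some abundant genes than for others. Within groups the ratio of the highest to the lowest library had a median of 1.11 for Mgst3 and 1.17 for Sult1b1. Sult6b2, a sulfotransferase of little-known substrates, spread most widely among the abundant members. Its control libraries stood at 8.70, 16.9 and 215 CPM, and its CBLB502 libraries at 715, 1884 and 395 CPM. Sult6b2 was called in none of the 8 comparisons with control, and neither were Gsta1 and Gstp3. The other 35 of 38 measured members were called in at least 1. The share of all genes called in at least 1 was not computed, so this count has no baseline. Single comparisons with control called 4.94 to 37.3% of all genes.

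**Figure D1:**
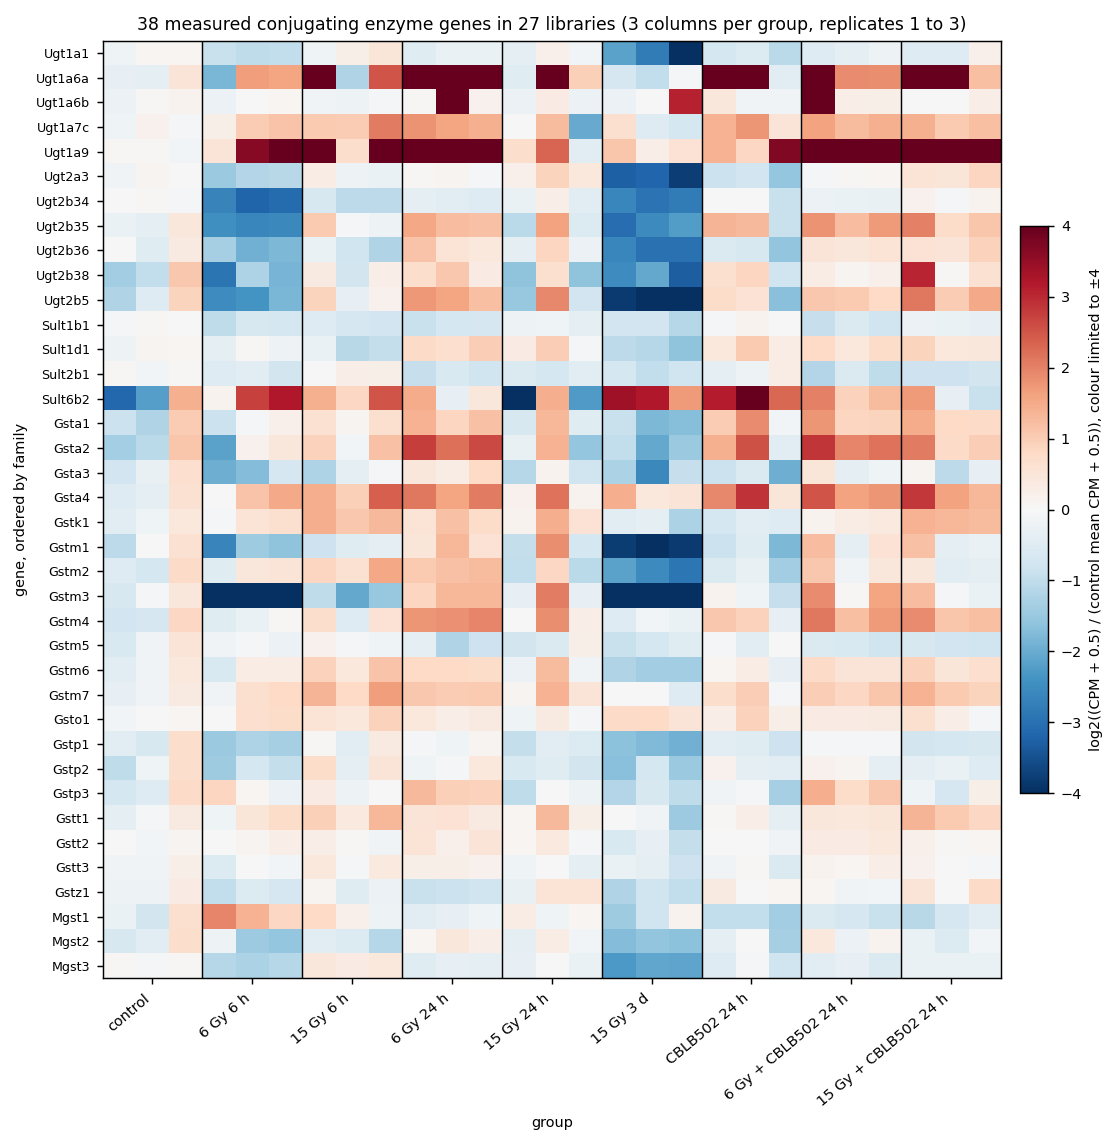
Level of the 38 measured genes (rows, by family) in the 27 libraries (columns, replicates 1 to 3 of each group from left to right), as log2 of CPM + 0.5 over the control mean + 0.5. Colours stop at 4 in either direction. The columns of 15 Gy 3 d are blue for most genes, those of 6 Gy 6 h are blue for the Ugt2 genes and Gstm3, and within-group differences show in control replicate 3 and 15 Gy 24 h replicate 2.

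Conjugating enzyme genes fell most widely 3 d after 15 Gy. Against control 23 of 38 fell and 1 rose, where 15.6% of all genes tested fell and 13.9% rose (29.4% called). The median log2 change was -1.25 over the members and 0.02 over all genes. Against 15 Gy 24 h, which shares the 3 d libraries, 22 fell and 1 rose, where 14.1% of all genes fell and 11.2% rose (25.3% called), with a median of -1.32. In each of these comparisons 18 of the falls were called in all 6 fits that left out 1 library. At 6 Gy 6 h 14 members fell and 2 rose against control, where 15.3% of all genes fell and 13.1% rose (28.4% called). The median was -0.22, and 7 of the falls and 1 of the rises were called in all 6 fits. Dbp also fell against control in both groups (-5.37 ± 1.11, adjusted p = 0.001 at 3 d and -4.33 ± 1.06, adjusted p = 0.0037 at 6 Gy 6 h). It fell too in the group given 15 Gy with CBLB502 (-4.63 ± 1.07, adjusted p = 0.0058), where the members' median was 0.52. In the other comparisons with control Dbp was not called (adjusted p = 0.11 to 0.66), but other clock genes were in some. Arntl rose at 15 Gy 24 h (2.89 ± 0.51, adjusted p = 0.0029) and 6 Gy 24 h (1.41 ± 0.49, adjusted p = 0.032). Per2 fell at both (-1.34 ± 0.36, adjusted p = 0.036, and -1.17 ± 0.36, adjusted p = 0.017) and at 6 Gy with CBLB502 (-1.08 ± 0.36, adjusted p = 0.022). No clock gene followed was called at 15 Gy 6 h or with CBLB502 alone. The part of the clock genes in these results was not tested.

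**Figure D2:**
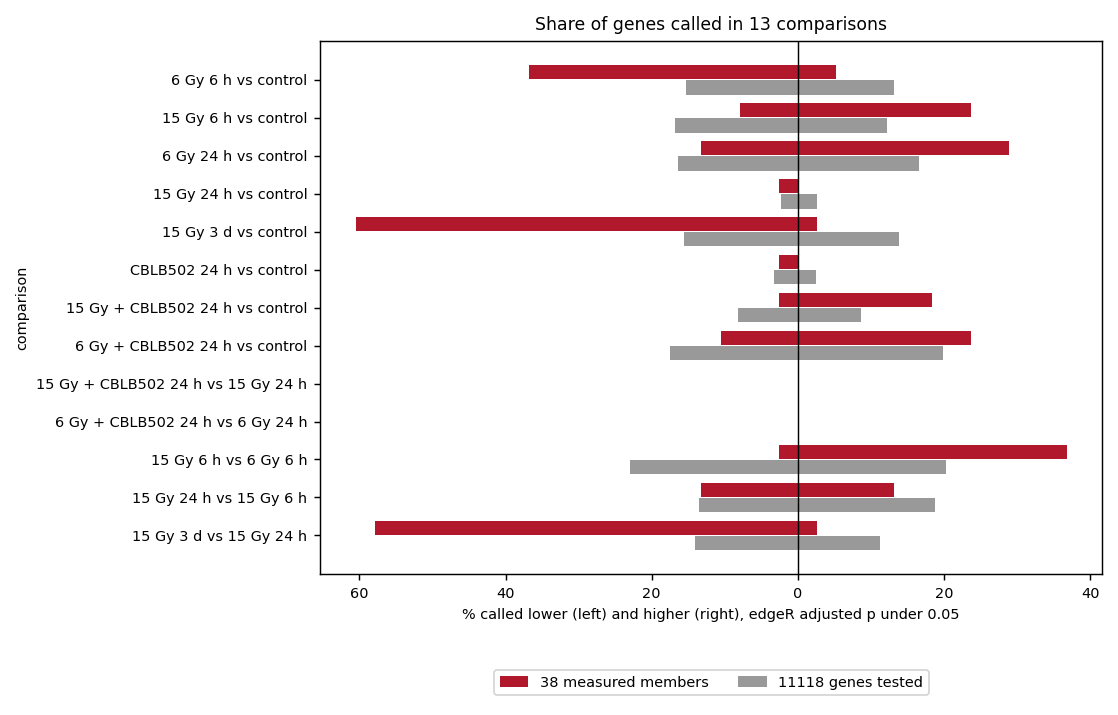
Share of the 38 measured conjugating enzyme genes (red) and of all 11118 genes tested (grey) that were called lower (left) or higher (right) in each of 13 comparisons. The longest red bars are the falls at 15 Gy 3 d (23 of 38 against control), while the bars are empty for CBLB502 given with either dose against the same dose alone.

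The most abundant UDP-glucuronosyltransferase gene by count was Ugt2b34 (chromosome 5, 86889767 to 86906937, minus strand, GRCm38), of the Ugt2 family that conjugates steroids and bile acids. It stood at 1018, 1028 and 967 CPM in control and at 157, 108 and 117 CPM at 6 Gy 6 h, with no overlap (-2.98 ± 0.22, adjusted p = 5.5e-09). At 15 Gy 6 h its libraries held 638, 490 and 484 CPM (-0.90 ± 0.20, adjusted p = 0.002). At 15 Gy 24 h they held 840, 1208 and 754 CPM, around the control level, and at 3 d 164, 129 and 145 CPM (-2.79 ± 0.21, adjusted p = 1.1e-08). The order over time at 15 Gy was thus lower at 6 h, near control at 24 h (0.80 ± 0.20 above 6 h, adjusted p = 0.0043) and lowest at 3 d.

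Ugt2a3, another glucuronosyltransferase of the gut lining, held 116, 139 and 129 CPM in control. It fell to 45.9, 56.7 and 59.6 CPM at 6 Gy 6 h (-1.25 ± 0.21, adjusted p = 0.00012) and to 13.01, 13.8 and 8.89 CPM at 15 Gy 3 d (-3.43 ± 0.23, adjusted p = 1.8e-09). At 15 Gy 6 h it held 158, 112 and 107 CPM, overlapping control. It was the only member called after CBLB502 alone, at 70.9, 74.6 and 43.8 CPM (-1.02 ± 0.21, adjusted p = 0.0071). With the 2 groups fitted alone this call was lost (adjusted p = 0.10).

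**Figure D3:**
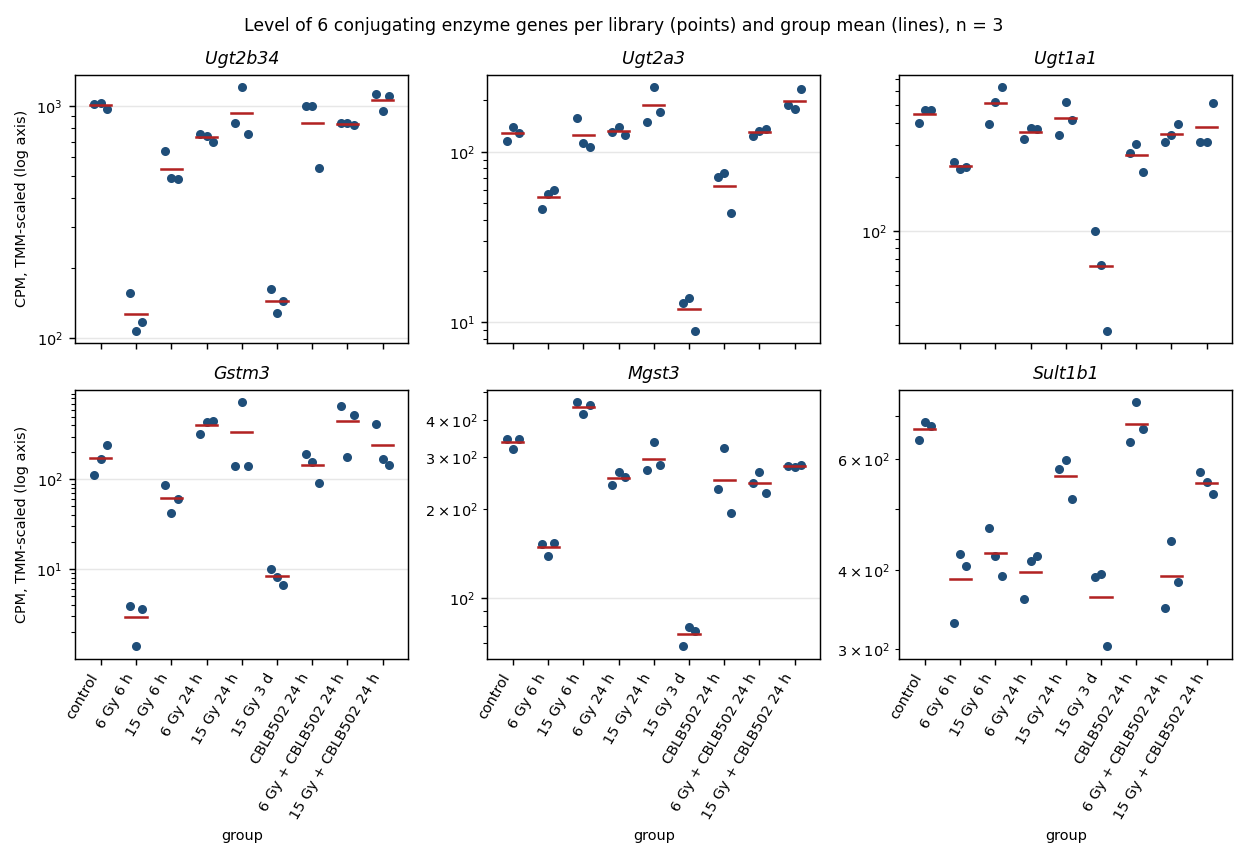
CPM (log axis, a different range in each panel) of 6 conjugating enzyme genes in each library (points) with the group mean (line), n = 3 libraries per group. Ugt2b34, Ugt2a3, Ugt1a1, Gstm3 and Mgst3 are low at 6 Gy 6 h and at 15 Gy 3 d, and Mgst3 is above control at 15 Gy 6 h. Sult1b1 is low in 5 groups, including both groups given 6 Gy and sampled at 24 h.

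The less abundant Ugt2b genes went furthest down at 3 d. Ugt2b5 (chromosome 5, 87124960 to 87140318, minus strand) held 4.53, 7.59 and 21.1 CPM in control and 0.308, 0 and 0 CPM at 15 Gy 3 d, which is 25 counts in 1 library and none in the others (-6.75 ± 1.13, adjusted p = 0.00014). Ugt2b36 (chromosome 5, 87065927 to 87092555, minus strand) went from 3.41, 2.33 and 4.52 CPM to 0.148, 0 and 0 CPM, or 12 counts in 1 library (-6.08 ± 0.79, adjusted p = 8.7e-06). Without 15 Gy 3 d replicate 1 both genes had no count left at 3 d, and their fitted changes (-12.71 and -11.01) then depend on the prior count. Ugt2b35 fell at 3 d from 11.4, 10.6 and 19.1 to 1.21, 1.92 and 2.49 CPM (-2.87 ± 0.63, adjusted p = 0.0018), and at 6 Gy 6 h to 2.10, 1.82 and 1.89 CPM (-2.82 ± 0.64, adjusted p = 0.002). Ugt2b5 shares 56.4% of its 31-base words with other genes, mostly Ugt2b38, so reads could be split between this pair.

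The promoters of Ugt2b5 and Ugt2b36 are shown because these genes had the largest fitted falls of the Ugt2 genes at 3 d and share a 24-base run just before the start. The run lies in only 3 of 32851 RefSeq promoters. The third belongs to Ugt2b37, a member below the filter with 326 counts in all, found in 9 libraries. Each line gives the 250 bases before the start on the minus strand of chromosome 5 (RefSeq, GRCm38.p6), 5′ to 3′, with the shared run in capitals, which begins 28, 31 and 45 bases before the start in Ugt2b5, Ugt2b36 and Ugt2b37. The windows are chr5:87140341-87140590, chr5:87092556-87092805 and chr5:87254789-87255038. The match is a description of these letters.
Ugt2b5: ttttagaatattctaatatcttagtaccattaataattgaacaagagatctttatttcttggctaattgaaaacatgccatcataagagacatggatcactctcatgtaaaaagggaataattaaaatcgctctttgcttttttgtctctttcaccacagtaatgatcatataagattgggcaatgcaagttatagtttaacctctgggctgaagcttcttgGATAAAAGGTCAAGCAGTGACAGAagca
Ugt2b36: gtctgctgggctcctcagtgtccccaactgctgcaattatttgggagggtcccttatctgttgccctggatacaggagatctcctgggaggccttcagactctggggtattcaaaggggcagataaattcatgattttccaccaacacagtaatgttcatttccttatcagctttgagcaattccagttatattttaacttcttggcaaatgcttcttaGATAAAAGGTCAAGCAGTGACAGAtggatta
Ugt2b37: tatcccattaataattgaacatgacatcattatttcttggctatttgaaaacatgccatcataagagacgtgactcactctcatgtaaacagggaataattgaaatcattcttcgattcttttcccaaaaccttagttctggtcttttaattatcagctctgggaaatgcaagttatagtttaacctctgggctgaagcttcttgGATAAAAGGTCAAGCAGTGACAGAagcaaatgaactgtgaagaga

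The Ugt1a genes lie in 1 locus on chromosome 1, where each has a first exon of its own and all use the same last exons. Between 53.0 and 84.2% of the 31-base words of the 5 measured Ugt1a genes occur in another gene, so how the authors' counting divided reads among them is uncertain. The best-expressed was Ugt1a1 (chromosome 1, 88211959 to 88218997, plus strand), the enzyme that conjugates bilirubin. It held 400, 471 and 471 CPM in control, 240, 220 and 228 CPM at 6 Gy 6 h (-0.96 ± 0.30, adjusted p = 0.019) and 100, 64.2 and 27.8 CPM at 15 Gy 3 d (-2.81 ± 0.32, adjusted p = 1.6e-06). The call at 6 Gy 6 h was lost without 6 Gy 6 h replicate 2 (adjusted p = 0.060) or 3 (0.055) or control replicate 2 (0.051). Its libraries at 15 Gy 6 h held 394, 523 and 633 CPM, around control.

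Other Ugt1a genes jumped between libraries of a group. Ugt1a9 held 0.216, 0.214 and 0.134 CPM in control and 227, 0.618 and 17.8 CPM at 15 Gy 6 h, and Ugt1a6a held 168, 0.873 and 17.7 CPM in those 3 libraries. Ugt1a6b passed the filter in 3 libraries only, and at 6 Gy 24 h it held 0.108, 95.8 and 0.152 CPM. Ugt1a9 was called higher in 5 of the 8 comparisons with control, with changes of 6.14 to 9.27. The lowest, at 6 Gy 6 h, was 4.50 and not called without 6 Gy 6 h replicate 3 (adjusted p = 0.060). At 15 Gy 6 h its change of 8.75 was 5.60 without 15 Gy 6 h replicate 1, and still called. Ugt1a7c rose in 3, by 1.48 at 15 Gy 6 h, 1.62 at 6 Gy 24 h and 1.45 at 6 Gy with CBLB502. The first was lost without 15 Gy 6 h replicate 3 (1.03, adjusted p = 0.19) or control replicate 1 (0.10), 2 (0.071) or 3 (0.086). The second was lost without 6 Gy 24 h replicate 1 (0.063) or control replicate 1 (0.069), and the third in 5 of 6 fits that left out 1 library.

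Summing the counts of the 9 Ugt1a genes of the locus, an analysis added after these jumps were seen, avoids the division. The summed locus held 497, 592 and 578 CPM in control and 264, 139 and 99.4 CPM at 15 Gy 3 d (-1.73 ± 0.31, adjusted p = 0.0003). It held 367, 448 and 498 CPM at 6 Gy 6 h (-0.34 ± 0.31, adjusted p = 0.44) and 1006, 735 and 1120 CPM at 15 Gy 6 h (0.78 ± 0.31, adjusted p = 0.062). The last group did not overlap control but was not called. At 6 Gy 24 h the sum was 0.71 ± 0.31 above control (adjusted p = 0.081) and at 15 Gy with CBLB502 0.58 ± 0.31 (adjusted p = 0.21). At 6 Gy with CBLB502 it was 0.51 ± 0.31 above (adjusted p = 0.20). In order, these groups held 869 to 963, 745 to 912 and 729 to 834 CPM. They too lay above every control library without being called. So the fall at 3 d held for the locus as a whole, while the calls of Ugt1a9 and Ugt1a7c as higher had no called counterpart in the sum.

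**Figure D4:**
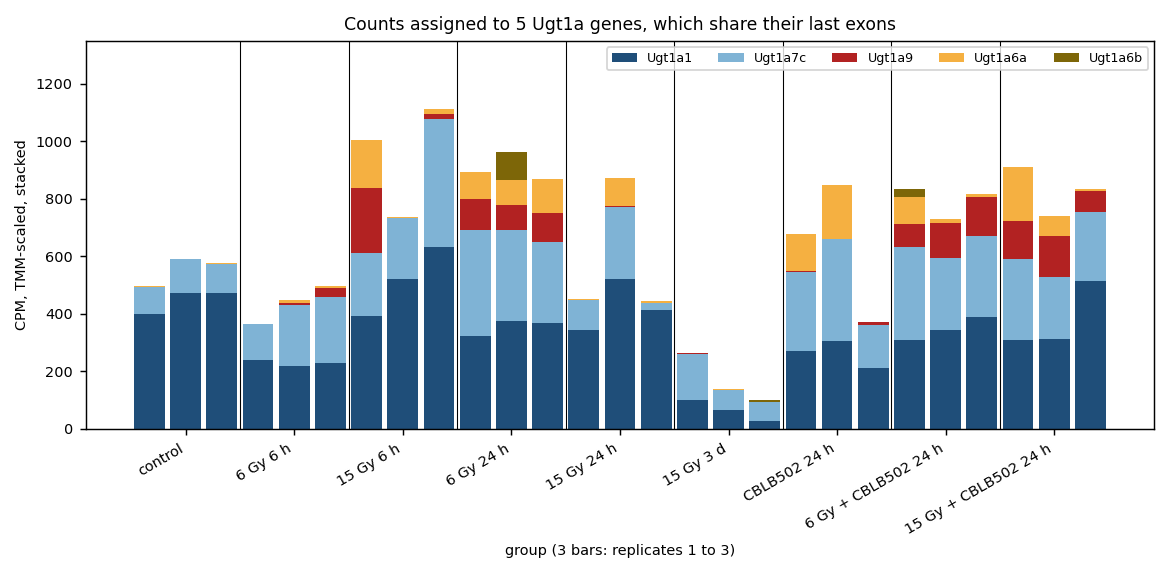
CPM assigned to the 5 measured Ugt1a genes, stacked, in each library (bars, replicates 1 to 3 of each group). The whole bar is lowest in the 3 libraries of 15 Gy 3 d, and the parts assigned to Ugt1a9, Ugt1a6a and Ugt1a6b appear in some libraries of a group and not in others, as for Ugt1a6b in 1 library of 6 Gy 24 h.

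By enzyme class, the falls at 15 Gy 3 d were 7 of 11 measured glucuronosyltransferase genes, 11 of 20 Gst genes, 2 of 3 microsomal Mgst genes and 3 of 4 sulfotransferases. Of all genes tested, 15.6% fell there. Summed, the glucuronosyltransferases held 1651 to 1782 CPM in control, 572 to 681 CPM at 6 Gy 6 h and 255 to 443 CPM at 3 d, with no overlap. The 20 Gst genes summed to 930 to 1778 CPM in control and 777 to 1011 CPM at 3 d, which overlapped.

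Of the 7 genes of the mu class (Gstm), which detoxifies electrophiles and lipid peroxidation products, 2 fell at 6 Gy 6 h (class median -0.14) and 5 at 15 Gy 3 d (class median -1.35). Of all genes tested, 15.3% and 15.6% fell. Gstm1 at 6 Gy 6 h held 14.1 to 33.7 CPM (-1.82), a fall called in 1 of 6 fits that left out 1 library. The fall of Gstm5 at 3 d (-0.73) was also called in 1 of 6. Gstm3 (chromosome 3, 107963696 to 107969283, minus strand) held 113, 171 and 241 CPM in control and 3.94, 1.38 and 3.59 CPM at 6 Gy 6 h (-5.88 ± 0.71, adjusted p = 3.1e-06). At 15 Gy 6 h it held 86.4, 42.0 and 60.1 CPM, below every control library but not called against control. At 15 Gy 24 h it held 140, 722 and 140 CPM, where 1 library stood far above the others, and at 3 d 10.2, 8.24 and 6.75 CPM (-4.38 ± 0.66, adjusted p = 4.6e-05). Gstm1 (chromosome 3, 108012255 to 108017973, minus strand) held 43.3, 90.8 and 138 CPM in control and 6.01, 4.55 and 5.95 CPM at 3 d (-4.04 ± 0.70, adjusted p = 0.00018).

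Neighbouring mu genes differed in their pattern. Gstm2 fell at 3 d from 9.47, 8.33 and 23.6 to 2.78, 1.95 and 1.42 CPM (-2.75 ± 0.54, adjusted p = 0.00066), and Gstm6 by 1.35 ± 0.32. Gstm4, at 4.18, 4.43 and 13.7 CPM in control, held 5.08, 6.82 and 6.04 CPM at 3 d, within the control range, and was not called. At 6 Gy 24 h Gstm4 held 26.2, 27.8 and 29.97 CPM (1.92 ± 0.50, adjusted p = 0.0067), above every control library. Gstm1 and Gstm3 share 28.8 and 37.7% of their 31-base words with other genes, and Gstm4 shares 3.31%.

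Gstp1, the pi class enzyme, held 149, 131 and 335 CPM in control, 72.9, 87.6 and 80.6 CPM at 6 Gy 6 h (-1.35 ± 0.25, adjusted p = 0.00038) and 65.0, 59.6 and 53.8 CPM at 3 d (-1.78 ± 0.26, adjusted p = 2.5e-05). Control replicate 3 stood far above the other 2, and without it the change at 6 Gy 6 h was -0.80 and still called. Gstp1 shares 38.5% of its 31-base words with Gstp2, and the 3 Gstp genes summed gave -1.25 (adjusted p = 0.00093) and -1.64 (adjusted p = 7.2e-05) in these comparisons.

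The alpha class genes Gsta1 and Gsta4 act on lipid peroxidation products. Gsta4 was called higher at 15 Gy 6 h, at 6 Gy 24 h and in both groups given radiation with CBLB502, by 1.75 to 2.10. None of these 4 calls held in all 6 fits that left out 1 library. They held in 2 fits at 15 Gy 6 h and at 6 Gy 24 h, and in 3 in each group with CBLB502. The call at 15 Gy 6 h was lost without 15 Gy 6 h replicate 1 (adjusted p = 0.052) or 3 (1.24, adjusted p = 0.19) or control replicate 1 (0.13) or 2 (0.12). The call at 6 Gy 24 h was lost without replicate 1 (0.057) or 3 (0.0504) or control replicate 1 (0.083) or 2 (0.082), and that at 6 Gy with CBLB502 without replicate 1 (0.066) or control replicate 1 (0.064) or 2 (0.063). Its control libraries held 20.9, 23.3 and 45.9 CPM, and those of 15 Gy with CBLB502 218, 92.3 and 75.5 CPM (2.10 ± 0.63, adjusted p = 0.027). The last call was lost without replicate 1 of that group (1.48, adjusted p = 0.15), control replicate 1 (0.11) or control replicate 2 (0.094). Gsta1 overlapped control in all 8 other groups and was called against it in none. It held 57.4, 45.6 and 212 CPM in control, 278, 191 and 238 CPM at 6 Gy 24 h (1.17 ± 0.57, adjusted p = 0.12) and 56.0, 29.7 and 31.9 CPM at 3 d (-1.42 ± 0.58, adjusted p = 0.069), and 92.9% of its 31-base words occur in other genes.

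Gsto1, of the omega class that reduces oxidised substrates, was the only member called higher at 15 Gy 3 d. It held 326, 361 and 379 CPM in control and 607, 622 and 506 CPM at 3 d, with no overlap (0.70 ± 0.21, adjusted p = 0.016). Without 15 Gy 3 d replicate 2 the adjusted p was 0.053 and without control replicate 1 it was 0.057. Gsto1 was also called at 15 Gy 6 h (0.65 ± 0.21, adjusted p = 0.024), a call lost without 15 Gy 6 h replicate 3 (0.13), control replicate 1 (0.079) or control replicate 2 (0.057).

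The 3 microsomal glutathione transferases, membrane enzymes of which Mgst2 and Mgst3 also act in leukotriene synthesis, each had their own course. Mgst3 (chromosome 1, 167371966 to 167393841, minus strand) held 345, 319 and 346 CPM in control and 153, 139 and 153 CPM at 6 Gy 6 h (-1.18 ± 0.13, adjusted p = 1.3e-06). At 15 Gy 6 h it held 461, 420 and 450 CPM, above every control library (0.40 ± 0.13, adjusted p = 0.028), and at 3 d 68.3, 79.6 and 77.4 CPM (-2.17 ± 0.14, adjusted p = 1e-09). The rise at 15 Gy 6 h was no longer called without 15 Gy 6 h replicate 1 (0.37, adjusted p = 0.074) or 3 (0.39, 0.071) or control replicate 1 (0.42, 0.051) or 2 (0.36, 0.094).

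Mgst1 went the other way at 6 Gy 6 h. It held 119, 85.4 and 225 CPM in control and 561, 376 and 253 CPM there, with no overlap (1.47 ± 0.37, adjusted p = 0.0044), and it was called in no other comparison with control. Mgst2 fell at 3 d from 70.8, 79.7 and 178 to 32.7, 36.5 and 35.1 CPM (-1.66 ± 0.37, adjusted p = 0.0022).

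Of the 4 measured sulfotransferases, Sult1b1, Sult1d1 and Sult2b1 were called in several groups and Sult6b2 in none. Sult1b1 (chromosome 5, 87513339 to 87538195, minus strand), which sulfates thyroid hormone and small phenols, held 644, 685 and 676 CPM in control. It fell to 330, 425 and 407 CPM at 6 Gy 6 h (-0.79 ± 0.12, adjusted p = 5.8e-05), 467, 421 and 392 CPM at 15 Gy 6 h (-0.65 ± 0.12, adjusted p = 0.00047) and 391, 394 and 303 CPM at 3 d (-0.88 ± 0.12, adjusted p = 1.9e-05). At 6 Gy 24 h without and with CBLB502 it fell by 0.75 ± 0.12 and 0.77 ± 0.12, and these 5 falls were called in every fit that left out 1 library. At 15 Gy 24 h it held 578, 597 and 518 CPM and was not called.

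Sult2b1, which sulfates cholesterol, fell in 6 of the 8 comparisons with control, the most of any member. From 274, 249 and 276 CPM in control it stood at 162, 135 and 153 CPM at 3 d (-0.83 ± 0.16, adjusted p = 0.00049) and at 188, 195 and 158 CPM at 6 Gy 6 h (-0.56 ± 0.16, adjusted p = 0.01). The fall at 6 Gy 6 h was lost without 6 Gy 6 h replicate 3 (-0.48, adjusted p = 0.059). Sult2b1 was also the only member called at 15 Gy 24 h, at 179, 163 and 198 CPM (-0.57 ± 0.16, adjusted p = 0.04). That call, 1 of the 6 counted, held in 0 of 6 fits that left out 1 library (adjusted p = 0.054 to 0.14). Sult1d1, a catecholamine and phenol sulfotransferase (chromosome 5, 87554645 to 87569027, minus strand), held 129, 161 and 156 CPM in control and 72.0, 66.7 and 48.7 CPM at 3 d (-1.25 ± 0.26, adjusted p = 0.00098). At 6 Gy 24 h Sult1d1 held 250, 238 and 297 CPM (0.82 ± 0.26, adjusted p = 0.019), a call lost without 6 Gy 24 h replicate 3 (0.069) or control replicate 1 (0.069).

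At 6 h the 2 doses differed for these genes. At 15 Gy 9 members rose and 3 fell against control, where 12.2% of all genes rose and 16.8% fell (29% called), with a median of 0.30. Compared directly, 14 members were higher and 1 lower at 15 Gy than at 6 Gy, where 20.2% of all genes were higher and 23% lower (43.2% called), and the median was 0.83 over members and -0.03 over all genes. Of the 14, 10 were called in all 6 fits that left out 1 library. The largest were Gstm3 (4.41 ± 0.67, adjusted p = 1.8e-05), Ugt2b35 (3.22 ± 0.64, adjusted p = 0.00038), Ugt2b5 (2.82 ± 0.88, adjusted p = 0.013) and Ugt2b34 (2.08 ± 0.21, adjusted p = 1.2e-07). Mgst1 was the one lower, by 1.15 ± 0.36 (adjusted p = 0.014), a call lost without 15 Gy 6 h replicate 3 (0.069) or 6 Gy 6 h replicate 1 (0.092). For Mgst3 the 2 doses were called on opposite sides of control, and the difference itself was 1.58 ± 0.14 (adjusted p = 2e-08). The Dbp levels given above also separated these 2 groups of libraries, and their part in the difference was not tested. The count of 12 called at 15 Gy 6 h against control was 5 without 15 Gy 6 h replicate 3, 6 without control replicate 1 and 5 without control replicate 2.

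**Figure D5:**
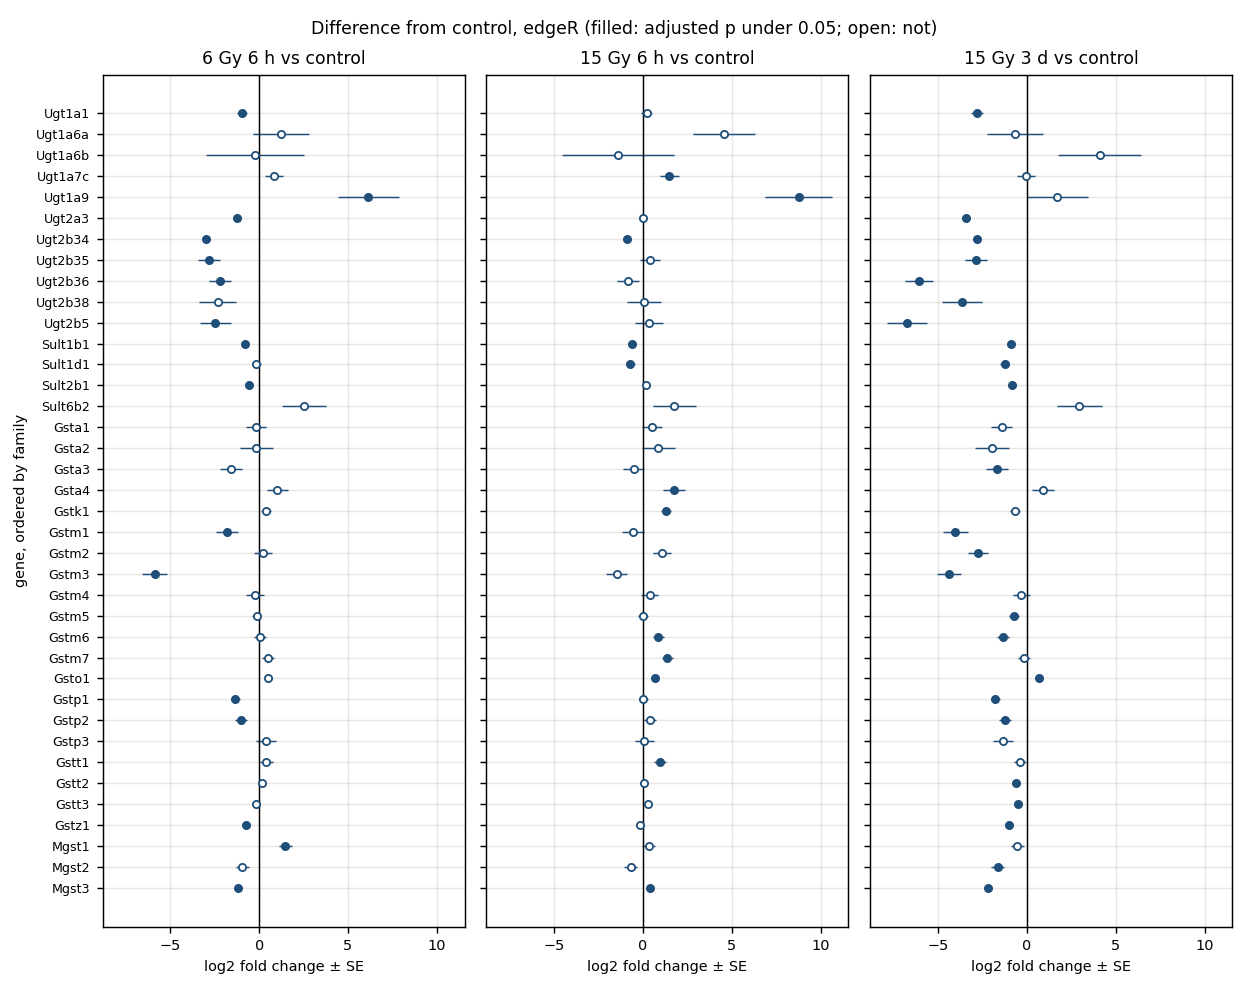
Log2 fold change against control (points, lines ± SE, n = 3 libraries per group) of the 38 measured genes at 6 Gy 6 h, 15 Gy 6 h and 15 Gy 3 d, with filled points for an adjusted p under 0.05 in edgeR. Filled points lie mostly left of 0 at 6 Gy 6 h (14 of 16) and 15 Gy 3 d (23 of 24) and mostly right of it at 15 Gy 6 h (9 of 12). The 3 panels share the control libraries.

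Between 6 h and 24 h after 15 Gy, 5 members rose and 5 fell, where 18.7% of all genes rose and 13.5% fell (32.2% called). Sult1d1 rose from 124, 68.4 and 76.8 to 185, 292 and 143 CPM (1.21 ± 0.26, adjusted p = 0.0011), and Mgst3 fell by 0.58 ± 0.13 (adjusted p = 0.002). Gstm3 rose by 2.41 ± 0.60 (adjusted p = 0.0041), a call lost without 15 Gy 24 h replicate 2 (1.16, adjusted p = 0.095). The count of 10 was 6 without 15 Gy 6 h replicate 3. Against control, 15 Gy 24 h had 1 member called lower and none higher, where 2.31% of all genes fell and 2.63% rose (4.94% called). This 1 call, of Sult2b1, was lost in each of the 6 fits that left out 1 library (adjusted p = 0.054 to 0.14). The count was 0 without 15 Gy 24 h replicate 2 or 3 or control replicate 1 or 2, and 2 without control replicate 3.

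At 6 Gy 24 h 11 members rose and 5 fell, where 16.6% of all genes rose and 16.4% fell (33% called), with a median of 0.79. Of these rises 4 were of Ugt1a genes, among which the division of reads is uncertain. They include Ugt1a6b (8.51), high in 1 library only. It was called in 3 of 6 fits that left out 1 library, with a lowest change of 0.59. Only 2 of the rises and 3 of the falls were called in all 6 fits that left out 1 library, the rises being Gstm4 and Ugt1a9 and the falls Sult1b1, Sult2b1 and Gstz1. Gstz1, an enzyme of tyrosine breakdown, held 18.6, 18.7 and 27.3 CPM in control and 11.3, 11.7 and 12.1 CPM here (-0.88 ± 0.23, adjusted p = 0.0065). The count of 16 was 10 without 6 Gy 24 h replicate 1, 9 without replicate 3, 6 without control replicate 1 and 9 without control replicate 2. Limma on log2(FPKM + 0.1) gave 22 higher and 0 lower, and on log2(FPKM + 1) 23 and 0. Mgst3, which fell by 0.40 in edgeR here, was 0.17 above control on both FPKM scales. On the first of these scales the median of all genes was itself shifted by 0.62, against 0.07 in edgeR. In these libraries 15 of 15 tested exocrine pancreas markers (16 listed) and 3 of 3 tested fibroblast markers (10 listed) were called higher. So were 4 of 7 tested smooth muscle (9 listed) and 3 of 5 tested cycling cell markers (8 listed). In control 9 of the 16 pancreas markers had no count. A marker could pass the filter through the libraries where it is high, so these counts are a description only. Fibroblast markers summed to 42.9 to 58.6 CPM against 3.07 to 7.04 CPM in control. The pancreas markers summed to 88.4, 7685 and 101 CPM against 18.04 to 20.6 CPM in control, and the part of these markers in the members' result was not tested.

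With CBLB502 alone 1 member fell and none rose, where 3.26% of all genes fell and 2.48% rose (5.74% called). This was Ugt2a3, and it was called in all 6 fits that left out 1 library. The count was 2 without CBLB502 replicate 2, 3 without CBLB502 replicate 3 and 4 without control replicate 3, and DESeq2 called 7. With 15 Gy and CBLB502 7 members rose and 1 fell against control, where 8.65% of all genes rose and 8.2% fell (16.9% called). Gstk1, a mitochondrial and peroxisomal glutathione transferase, went from 34.6, 41.1 and 62.6 to 121, 117 and 112 CPM (1.34 ± 0.29, adjusted p = 0.0036). Gstk1 also rose without CBLB502, at 15 Gy 6 h (97.1 to 127 CPM, 1.29, called in 6 of 6 fits that left out 1 library). At 6 Gy 24 h it rose by 0.85, called in 3 of 6 fits. At 15 Gy 24 h without CBLB502 Gstk1 held 51.3 to 128 CPM (0.84 above control, not called). That range overlapped the group with CBLB502, which was 0.50 higher and not called. With 15 Gy and CBLB502 the count of 8 was 3 without replicate 1 of that group, 5 without control replicate 1 and 4 without control replicate 2. With 6 Gy and CBLB502 9 rose and 4 fell, where 19.8% of all genes rose and 17.5% fell (37.3% called). Of these rises 3 were of Ugt1a genes, among them Ugt1a6b (6.62, called in 2 of 6 fits that left out 1 library). The count of 13 was 6 without replicate 1 or 3 of that group, 6 without control replicate 1 and 4 without control replicate 2, and limma on FPKM gave 20 higher and 1 lower (+ 0.1) or 22 and 1 (+ 1). These libraries share with 6 Gy 24 h the high pancreas markers (15 of 15 tested called higher) and fibroblast markers (3 of 3 tested, 43.4 to 66.5 CPM). Of smooth muscle markers 3 of 7 tested and of cycling cell markers 2 of 5 tested were called higher too. Here too a marker could pass the filter through these libraries, and the part of these markers was not tested.

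No member was called in edgeR for what CBLB502 added to a dose. Against 15 Gy 24 h alone, 15 Gy with CBLB502 had 0 members called in edgeR (0% of all genes called), 3 at an unadjusted p under 0.05 and 1 called by DESeq2. Against 6 Gy 24 h alone, 6 Gy with CBLB502 had 0 called in edgeR (0% of all genes called), 1 at an unadjusted p under 0.05 and 0 by DESeq2. The members' median differences were 0.23 and -0.07. Ugt2b34 held 1129, 953 and 1100 CPM with 15 Gy and CBLB502 against 840, 1208 and 754 CPM with 15 Gy alone, overlapping (0.18, interval of ± 2 SE from -0.22 to 0.58). The interactions, which set the CBLB502 difference with radiation against that without, had 0 members called in edgeR for 15 Gy (0.225% of all genes called; 2 members at an unadjusted p under 0.05 and 1 by DESeq2) and 0 for 6 Gy (0.324% of all genes called; 4 unadjusted and 0 by DESeq2). Limma on log2(FPKM + 0.1) and on log2(FPKM + 1) called 0 in these 4 comparisons. Without 15 Gy 24 h replicate 2 the 15 Gy interaction had 1 member called.

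Genes that supply the cofactors were followed from lists. Beside the counts of these and the later lists, 13.1% of all genes tested rose and 15.3% fell at 6 Gy 6 h. At 3 d 13.9% rose and 15.6% fell. Of 6 tested genes of glutathione supply (8 listed), 1 rose and 5 fell at 6 Gy 6 h, and 1 rose and 2 fell at 3 d. Gclm, the regulatory subunit of the enzyme that starts glutathione synthesis, held 93.6, 121 and 98.0 CPM in control, 8.38, 30.4 and 19.1 CPM at 6 Gy 6 h (-2.43 ± 0.35, adjusted p = 1.9e-05) and 50.3, 43.6 and 45.6 CPM at 3 d (-1.17 ± 0.33, adjusted p = 0.012). Gsr, which regenerates reduced glutathione, rose at both, by 1.51 ± 0.29 (adjusted p = 0.00043) and 0.94 ± 0.28 (adjusted p = 0.016). Ggt1, which breaks down glutathione outside the cell, fell at both (-0.80 ± 0.12 and -1.01 ± 0.12) and rose at 15 Gy 6 h (0.39 ± 0.12, adjusted p = 0.018).

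The sulfate donor is made by Papss1 and Papss2. Papss1 held 66.6, 59.6 and 31.3 CPM in control, 14.5, 7.45 and 5.51 CPM at 6 Gy 6 h (-2.52 ± 0.44, adjusted p = 0.00018) and 3.27, 3.55 and 6.82 CPM at 3 d (-3.53 ± 0.46, adjusted p = 8.4e-06). Slc35b3, which carries PAPS into the Golgi, rose by 1.11 ± 0.18 and 1.14 ± 0.18. In all, 2 of the 6 genes of PAPS supply rose and 2 fell at 6 Gy 6 h, and 1 rose and 2 fell at 3 d. Of the 3 genes of UDP-glucuronic acid supply, Ugp2 fell at 6 Gy 6 h (-0.36 ± 0.12, adjusted p = 0.031) and Slc35d1, a transporter of the sugar nucleotide, rose at 3 d (0.79 ± 0.25, adjusted p = 0.021). Ugdh, which makes UDP-glucuronic acid, was not called in either (-0.76 ± 0.38 and 0.08 ± 0.38).

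Exporters carry the finished conjugates out of the cell. Of 4 tested (6 listed), 2 fell at 6 Gy 6 h and 3 at 3 d, and none rose. Of all genes tested, 15.3% and 15.6% fell. Abcc2, which exports glutathione and glucuronide conjugates, held 832, 925 and 692 CPM in control, 52.0, 49.97 and 50.5 CPM at 6 Gy 6 h (-4.01 ± 0.38, adjusted p = 1.6e-07), 718, 576 and 535 CPM at 15 Gy 6 h, where it was not called, and 232, 132 and 147 CPM at 3 d (-2.26 ± 0.35, adjusted p = 6.4e-05). Abcg2, which exports sulfate conjugates, was not called at 6 Gy 6 h or 3 d. Of 7 tested genes of other conjugation and hydrolysis (14 listed), 1 rose and 4 fell at 6 Gy 6 h and 2 rose and 3 fell at 3 d. As3mt, an arsenic methyltransferase, fell at both (-1.02 ± 0.15 and -2.14 ± 0.16).

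Of 14 xenobiotic receptors and regulators, 2 rose and 2 fell at 6 Gy 6 h and 0 rose and 3 fell at 3 d. Of all genes tested, 28.4% were called at 6 Gy 6 h and 29.4% at 3 d. The share called in this list was near or below these. Hnf4a, a master factor of enterocytes and hepatocytes, rose at 6 Gy 6 h (0.73 ± 0.19, adjusted p = 0.0067) and was not called at 3 d (0.23 ± 0.19). Bach1, a repressor of antioxidant genes, fell at 6 Gy 6 h, 15 Gy 6 h and 3 d (-1.39 ± 0.28, -1.02 ± 0.28 and -0.85 ± 0.28). Of 14 tested genes read as outputs of these receptors (15 listed), 7 fell and 0 rose at 6 Gy 6 h, and likewise 7 and 0 at 3 d. Cyp3a25, of the PXR-responsive Cyp3a family, held 388, 751 and 656 CPM in control, 134, 162 and 116 CPM at 6 Gy 6 h (-2.13 ± 0.40, adjusted p = 0.0004) and 27.1, 22.2 and 9.05 CPM at 3 d (-4.94 ± 0.45, adjusted p = 9.8e-08). Cyp2b10, a standard readout of CAR, fell at these times (-3.73 ± 0.41 and -4.75 ± 0.43) and was not called at 15 Gy 6 h (0.36 ± 0.37). In the 250 bases before the start, the antioxidant response element core TGACNNNGC (both strands) lay in 4 of 35 measured members with a RefSeq promoter (11.4%), against 11.5% of 27025 genes. The xenobiotic response element core GCGTG lay in 9 of 35 (25.7%), against 30.9%.

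Markers of several cell types moved in these groups. Of the enterocyte markers, at 6 Gy 6 h 10 of 11 fell (median -0.96) and at 3 d 7 of 11 (median -0.70), while at 15 Gy 6 h 4 rose and 2 fell (median 0.13). Their summed level was 92659 to 112269 CPM in control, 45133 to 49915 CPM at 6 Gy 6 h, 123685 to 137133 CPM at 15 Gy 6 h and 66894 to 93750 CPM at 3 d. None of the 11 was at 0. At 6 Gy 24 h 8 of 11 enterocyte markers fell (median -0.68), while the members' median there was 0.79. In bulk tissue, fewer cells of a type and less RNA per cell cannot be told apart. Goblet cell markers fell in 5 of 6 cases at 6 Gy 6 h (median -1.41) and were higher in 5 of 6 at 15 Gy than at 6 Gy at 6 h (median 1.62), and 0 of 6 were called at 3 d. Of 6 tested T cell markers 4 fell at 3 d (median -1.30), and of 3 tested tuft cell markers 3 rose at 6 Gy 6 h and 2 fell at 3 d. The part of these cell types' markers in the members' results was not tested.

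Liver is rich in these enzymes. Of 10 hepatocyte markers 4 were tested, and 2 rose at 6 Gy 6 h, 1 at 3 d and 2 at 6 Gy with CBLB502. At 15 Gy 6 h 1 rose and 1 fell, and 1 fell at 6 Gy 24 h and 1 at 15 Gy with CBLB502. The sum of all 10 was 3.38 to 4.11 CPM in control, where Alb and 5 others were at 0. It reached 51.4 CPM in 6 Gy 6 h replicate 1, 38.2 CPM in replicate 2 of 6 Gy with CBLB502 and 30.2 CPM in 15 Gy 3 d replicate 1. Proximal small intestine markers summed to 3196 to 3367 CPM in control, 4091 to 5463 CPM at 15 Gy 6 h and 1127 to 1644 CPM at 3 d, although 3 of the 6 rose and 1 fell at 3 d. Large intestine markers, of which 2 of 6 were tested, summed to 113, 51.0 and 321 CPM in control and 1.36, 1.61 and 7.07 CPM at 3 d, where 1 fell. Ileum markers summed to 672 to 873 CPM in control and 347 to 621 CPM at 3 d, where 1 of 3 tested fell. At 6 Gy 6 h 1 rose and 1 fell. All 3 fell at 6 Gy 24 h (median -1.81), with sums of 180 to 293 CPM. All 3 also fell at 6 Gy with CBLB502 (-2.01, 178 to 242 CPM) and at 15 Gy with CBLB502 (-1.16, 310 to 365 CPM). With CBLB502 alone 1 of 3 fell (median -1.23), with sums of 312 to 404 CPM, below every control library. At 15 Gy 6 h 1 fell (515 to 622 CPM), and at 15 Gy 24 h 0 were called (361 to 570 CPM). The part of sampling position along the gut in these results was not tested.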

How the data were processed

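Intestinal RNA-seq of 27 libraries (9 groups of 3) was deposited as 1 table of 55401 genes, 23888 of them with no count. The deposited table gives the authors' read counts per gene and, beside them, the authors' FPKM values, with 0.0001 in place of 0. The submitters' processing notes name Bowtie 0.12.2, HISAT2 2.0, StringTie 1.3.0 and mm8 without roles. The table's positions are those of GRCm38, since 64 of 67 members have the same start and end in a GENCODE annotation of that build. Strand use in counting is not given in the sources used here.

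Counts were tested with edgeR 4.0.16 (R 4.3.3) by the quasi-likelihood test with TMM scaling, in 1 fit over all groups, for the 11118 genes that 3 or more libraries held at 1 FPKM or above. P-values were Benjamini-Hochberg adjusted over these genes at 0.05. FPKM served for the filter and for levels between genes. The common dispersion was 0.0961. The script was tested on simulated data. Alternatives were DESeq2 1.42.0, limma 3.58.1 on log2(FPKM + 0.1) and log2(FPKM + 1), median-ratio scaling, no filter, mitochondrial genes left out, the compared groups fitted alone, a replicate block and each library left out. Leaving out the 6 libraries of 6 Gy 24 h with and without CBLB502, the sums over loci, the clock genes and the shared promoter run were chosen after seeing the data.

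Members, gene lists and markers were chosen with earlier results of these data known. Members were named for a mean of at least 50 FPKM, for being among the 3 largest called, non-overlapping changes per direction and comparison (higher group at 5 FPKM or more), or for calls in at least 6 of 8 comparisons with control. Gstk1, Gstm2, Gstm5, Gstm6, Gstz1, Mgst2, Ugt1a6b, Ugt2b35, Ugt2b36 and Ugt2b37, where outside this rule, were chosen after their values were seen. Sequence shared between genes was counted as 31-base words of their transcripts. Values of 1 gene of these lists are not reported here.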

Additional observations from a re-analysis of the deposited data

Results flagged for a closer look

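Mgst3 differed between the 2 doses at 6 h, by 1.58 on the log2 scale (15 Gy minus 6 Gy). All 3 libraries of 6 Gy 6 h lay below every control library and all 3 libraries of 15 Gy 6 h above, and the test of the difference itself gave an adjusted p of 2e-08 in edgeR.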

How the results depend on the processing

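Counts of members called, with 1 library left out at a time, ranged from 11 to 18 at 6 Gy 6 h, 5 to 13 at 15 Gy 6 h, 6 to 18 at 6 Gy 24 h, 0 to 2 at 15 Gy 24 h, 20 to 24 at 15 Gy 3 d, 1 to 4 for CBLB502, 3 to 8 for 15 Gy with CBLB502 and 4 to 15 for 6 Gy with CBLB502, each against control. They ranged from 10 to 17 for 15 Gy against 6 Gy at 6 h, 6 to 14 for 24 h against 6 h, 20 to 24 for 3 d against 24 h and 0 to 1 for the 15 Gy interaction, and were 0 for CBLB502 within either dose and for the 6 Gy interaction. DESeq2 called 1 for CBLB502 within 15 Gy, 2 at 15 Gy 24 h, 7 for CBLB502 and 1 for the 15 Gy interaction. Fitting the compared groups alone gave 4 for 24 h against 6 h and 0 at 15 Gy 24 h and for CBLB502. Limma on either FPKM scale gave 6 for 24 h against 6 h, 0 at 15 Gy 24 h, 5 at 15 Gy 6 h and 2 for CBLB502, and 21 (+ 0.1) and 23 (+ 1) for 6 Gy with CBLB502. With no filter there were 5 for 15 Gy with CBLB502, 0 at 15 Gy 24 h and 7 for 6 Gy with CBLB502. Without the 6 libraries of 6 Gy 24 h with and without CBLB502 there were 4 for 15 Gy with CBLB502, 0 at 15 Gy 24 h and 7 at 15 Gy 6 h. Mgst3 turned from a fall to 0.17 at 6 Gy 24 h and 0.14 at 6 Gy with CBLB502 on both FPKM scales, and the cause was not tested. Of 92 changes of named members, DESeq2 kept the direction and the call of 92, median-ratio scaling 91, no filter 76, fitting the compared groups alone 74 and limma on either FPKM scale 70 (20 no longer called, 2 reversed). Over all fits that left out 1 library, 429 of 552 kept both.

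Replicate numbers did not pair the samples: 10 of 39 same-numbered pairs correlated over 0.1, in 0 of 13 comparisons did every pair, and 15 correlated best with their own number. With the replicate block the counts were 16 at 6 Gy 6 h, 9 at 15 Gy 6 h, 16 at 6 Gy 24 h, 1 at 15 Gy 24 h, 22 at 3 d, 1 for CBLB502, 7 for 15 Gy with CBLB502, 10 for 6 Gy with CBLB502, 15 for the doses at 6 h, 10 for 24 h against 6 h and 23 for 3 d against 24 h, and 0 elsewhere. It ended the calls of Gsta2 at 6 Gy with CBLB502 (adjusted p = 0.057), Gsta4 at 15 Gy 6 h (0.053) and Gstm4 at 15 Gy with CBLB502 (0.057). With 3 libraries a group and unequal replicates, smaller changes than those called may be missed.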
